A study of Rattus norvegicus with 11 samples.

Results

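Cell cycle and DNA replication genes were described across 11 arrays of rat renal cortex in 4 groups. A fixed list of 37 genes was used, 18 that act in G1 or in DNA replication and 19 that act in mitosis. Of these, 33 were measured, 17 of G1 and replication and 16 mitotic, out of 25805 genes measured in all. A gene counted as measured when a probe of it was well above background on at least 2 arrays, and the brightest such probe stood for the gene. All 33 were well above background on all 11 arrays. No probe was matched here to Mki67, Top2a, Mcm5 or Bub1b, so the usual proliferation marker Ki-67 was not analysed here.

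The Control+Sham group (3 arrays) held Sprague-Dawley (SD) control rats after a sham operation, and the Control+RYGB group (3 arrays) held control rats after Roux-en-Y gastric bypass (RYGB), which joins a small stomach pouch to a lower loop of the small intestine. The DM+Sham group (3 arrays) and the DM+RYGB group (2 arrays) held rats with type 1 diabetes, induced with streptozotocin (STZ), a toxin that kills insulin-producing cells. Surgery followed induction by 4 weeks, and cortex was collected 4 weeks after surgery. The labels used here give no age or sex and do not say whether arrays come from separate animals, so the p-values measure the spread between these samples, which may be technical. The comparisons ask how diabetes and RYGB each alter the cortex, and whether the effect of RYGB depends on diabetes.

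Cells enter the cycle when cyclin D and cyclin E kinases free E2F transcription factors, which switch on the genes that load the MCM helicase, make nucleotides and copy DNA. A later wave of genes supplies cyclin B with CDK1, the mitotic kinases and the motors of the spindle. It is driven in part by FOXM1, and many of its promoters hold CHR and CCAAT elements. Most cells of the adult kidney are at rest, and tubule cells divide after injury. In bulk cortex, fewer dividing cells and less of each RNA per dividing cell cannot be told apart.

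Promoter windows of 120 bases before the start site are shown for 5 members as examples, chosen after their matches and values were seen. Cdk1, Ccnb2 and Cdc20 show CHR with CCAAT, Mcm7 shows E2F with CCAAT, and Mcm3 shows CCAAT and no E2F match in this window. The wider Mcm3 window counted in the next paragraph holds 2 E2F matches. Sequences are from RefSeq (GRCr8), 5′ to 3′ on the strand of the gene. Capitals mark matches on either strand. The CHR letters were TTTGAA and also TTCGAA, and the box next to it was CCAAT. The E2F letters were TTTCGCGC and also TTTGGCGC and also TTTCCCGC and also TTTGCCGC. In the Mcm7 window the E2F and CCAAT matches overlap.
Cdk1 (chr20:19265173-19265292, plus strand): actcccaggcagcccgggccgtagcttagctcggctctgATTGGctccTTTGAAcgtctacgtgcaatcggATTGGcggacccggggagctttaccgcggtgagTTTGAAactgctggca
Ccnb2 (chr8:79981659-79981778, minus strand): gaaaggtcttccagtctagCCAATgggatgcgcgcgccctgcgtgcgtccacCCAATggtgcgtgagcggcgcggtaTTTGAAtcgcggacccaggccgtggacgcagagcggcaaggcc
Cdc20 (chr5:137255800-137255919, minus strand): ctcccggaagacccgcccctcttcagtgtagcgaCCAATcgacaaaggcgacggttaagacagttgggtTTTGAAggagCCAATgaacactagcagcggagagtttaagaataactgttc
Mcm7 (chr12:22163179-22163298, minus strand): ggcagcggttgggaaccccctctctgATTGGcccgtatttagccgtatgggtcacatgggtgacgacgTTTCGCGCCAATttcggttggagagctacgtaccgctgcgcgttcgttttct
Mcm3 (chr9:30733747-30733866, minus strand): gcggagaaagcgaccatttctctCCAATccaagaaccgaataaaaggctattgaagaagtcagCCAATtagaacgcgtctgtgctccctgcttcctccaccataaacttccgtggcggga

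Of the listed genes, 12 of G1 and replication and 15 mitotic genes had an entry in the promoter table, whose windows run from 250 bases before to 50 bases after the start. A CHR match stood in 9 of the 15 mitotic promoters (60%), in 3 of the 12 of G1 and replication (25%), and in 21% of all 27457 promoters. CHR together with CCAAT stood in 8 of 15 mitotic promoters (53.3%) against 8.57% of all promoters. An E2F match stood in 6 of 12 promoters of G1 and replication genes (50%), in 1 of 15 mitotic ones (6.67%) and in 2.37% of all. A match is a description of letters, not a site in use. Of the genes whose windows are printed, Cdk1, Ccnb2 and Mcm3 fell with diabetes in sham rats, and Cdc20 and Mcm7 passed no test there.

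Values are log2 signal after subtraction of the 75th percentile of the array, so 0 is that percentile and a difference of 1 is a doubling. The words rose and fell are kept for genes to which limma gave an adjusted p under 0.05 in the same direction with 75th percentile, median and quantile scaling. Between 77.7% and 93.5% of probes were well above background per array, no probe was saturated, and the 75th percentile of the raw signal ran from 1541 to 4454. DM+Sham 2 and 3, and Control+RYGB 2 and 3, differed by less than the noise of repeated spots and were each counted as 1 sample, which left 9 samples. The DM+RYGB arrays stood farthest apart within a group: their spread over repeated probes was 0.395, and the summed level of 8 heart muscle markers was -0.04 on DM+RYGB 1 and 8.26 on DM+RYGB 2. All Control+RYGB arrays shared a slide position that no other array had, so that group cannot be told apart from position.

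Diabetes in sham-operated rats went with lower levels of most mitotic genes. Of 33 listed genes 17 fell and 0 rose, where 6.43% of all genes fell and 6.73% rose (13.2% either way). The arrays of both groups did not overlap for 23 lower and 6 higher listed genes, and for 24.1% and 29.7% of all genes. The 17 were 13 of 16 mitotic genes and 4 of 17 genes of G1 and replication. The median difference was -1.15 over the mitotic genes, -0.25 over those of G1 and replication, and 0.03 over all genes.

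Ccna2 encodes cyclin A, which drives S phase and entry into mitosis. It read -2.43, -2.44 and -2.53 on Control+Sham 1 to 3, and -4.03, -4.06 and -4.07 on DM+Sham 1 to 3. It read -3.03, -2.91 and -2.88 on Control+RYGB 1 to 3, and -3.86 and -3.99 on DM+RYGB 1 and 2. Every diabetic array lay below every control array. The fall in sham rats was 1.58 on the log2 scale (SE 0.10, 2.99-fold, adjusted p = 0.00033), and a second Ccna2 probe gave -1.53.

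Cdk1, the mitotic kinase, was also lower on every diabetic array than on every control array. It read -1.53, -1.43 and -1.51 in Control+Sham, -2.96, -2.79 and -2.76 in DM+Sham, -2.13, -1.99 and -1.97 in Control+RYGB, and -3.19 and -3.23 in DM+RYGB. Its 4 groups did not overlap, and DM+RYGB was lowest. It fell by 1.38 in sham rats (SE 0.11, 2.60-fold, adjusted p = 0.00065).

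The cyclin B partners of Cdk1 were lower too. Ccnb1 read -3.10, -3.14 and -3.25 in Control+Sham and -4.34, -4.34 and -4.30 in DM+Sham, and it fell by 1.17 (SE 0.11, adjusted p = 0.0014). Ccnb2 read -4.33, -4.20 and -4.37 in Control+Sham and -5.39, -5.73 and -5.74 in DM+Sham, and it fell by 1.26 (SE 0.13, adjusted p = 0.002). The DM+RYGB arrays, at -4.44 and -4.60 for Ccnb2, lay near Control+Sham rather than DM+Sham on this scale.

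Kif2c, a kinesin that takes microtubules apart at the centromere, fell most, by 1.63 (SE 0.12, 3.10-fold, adjusted p = 0.00059). It read -5.44, -5.33 and -5.51 in Control+Sham, -6.93, -7.16 and -7.21 in DM+Sham, -5.82, -5.67 and -5.66 in Control+RYGB, and -5.80 and -5.89 in DM+RYGB. On this scale the DM+Sham arrays were far below all others, but with quantile scaling DM+RYGB had the lowest mean. Ube2c, which tags mitotic cyclins for destruction, read -4.22, -3.88 and -4.14 in Control+Sham and -5.39, -5.66 and -5.53 in DM+Sham, a fall of 1.41 (SE 0.13, adjusted p = 0.0013).

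The other mitotic genes that fell were Kif20a, a cytokinesis kinesin (-1.51), Cenpf, a kinetochore protein (-1.31), Bub1, a checkpoint kinase (-1.13), the Aurora kinases Aurkb (-1.06) and Aurka (-0.66), Plk1, the polo-like kinase (-0.62), and Foxm1 (-0.43). A second Foxm1 probe gave 0.12 and passed no test. The 3 mitotic genes not called were Birc5, the chromosomal passenger survivin, at 0.46, Cdc20, an activator of the anaphase-promoting complex, at 0.08, and Kif11, a spindle motor, at -0.17. Cdc20 had the widest spread, from -0.80 to 0.47 within Control+Sham.

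**Figure D1:**
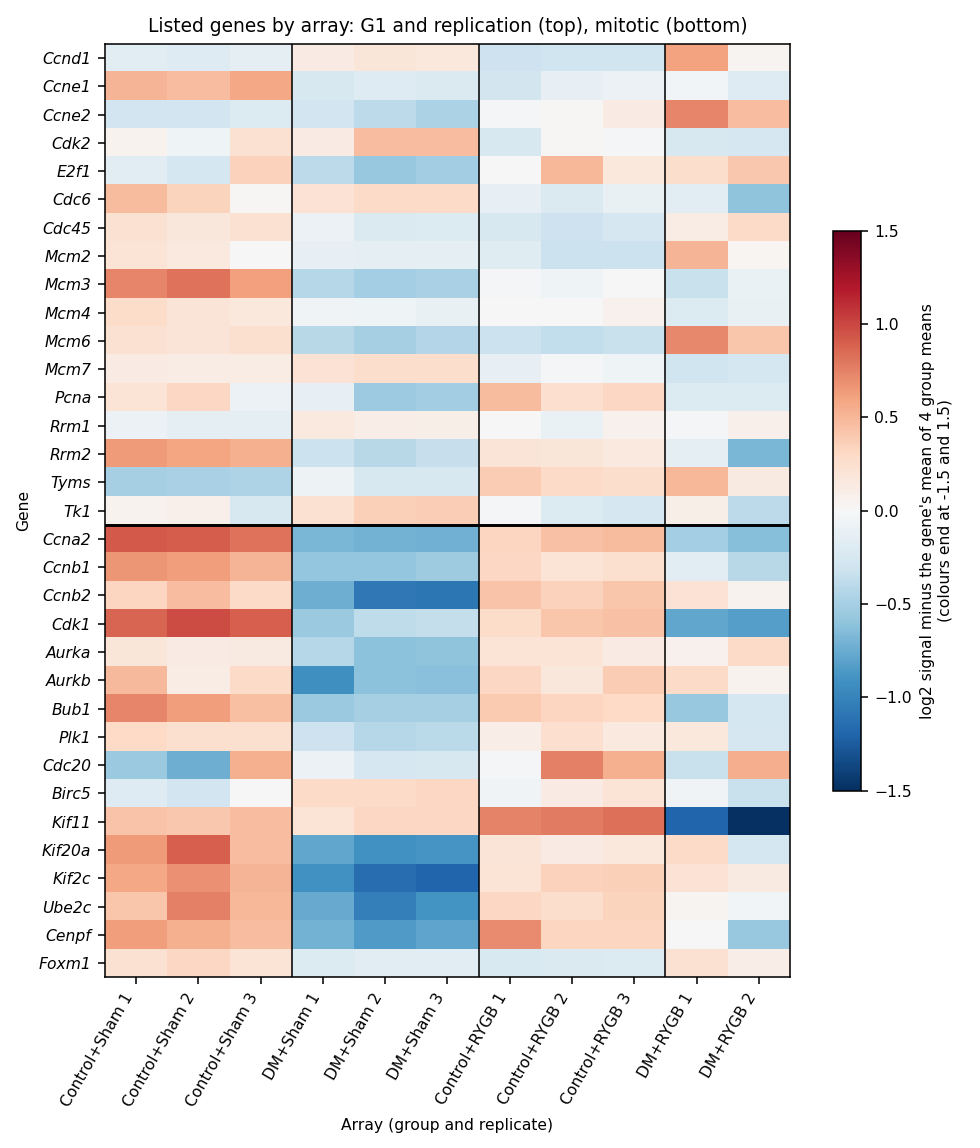
Log2 signal of 33 listed genes (rows) on 11 arrays (columns), each minus the mean of its 4 group means; colours end at -1.5 and 1.5, and the black line parts G1 and replication genes from mitotic genes. The mitotic block is red on the Control+Sham arrays and blue on the DM+Sham arrays for the 13 genes that fell, while the upper block shows fewer such rows.

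Among replication genes, Mcm3, a subunit of the helicase that opens DNA, fell by 1.18 (SE 0.12, 2.26-fold, adjusted p = 0.0014). It read -0.27, -0.19 and -0.39 in Control+Sham, -1.43, -1.51 and -1.49 in DM+Sham, -1.03, -1.06 and -1.0 in Control+RYGB, and -1.33 and -1.10 in DM+RYGB. On the probe used here, Control+Sham was above every other array. A second Mcm3 probe gave -0.97 for diabetes in sham rats and 1.17 for RYGB in diabetic rats. On that probe the DM+RYGB mean was not below the Control+Sham mean.

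Ccne1, cyclin E, read -3.35, -3.39 and -3.28 in Control+Sham, -4.10, -4.05 and -4.07 in DM+Sham, -4.13, -3.98 and -3.94 in Control+RYGB, and -3.90 and -4.05 in DM+RYGB. It too was highest in Control+Sham, with all other arrays between -4.13 and -3.90, and it fell by 0.74 with diabetes in sham rats (SE 0.11, adjusted p = 0.0061). Rrm2, the regulated subunit of ribonucleotide reductase, read -0.34, -0.39 and -0.44 in Control+Sham and -1.30, -1.39 and -1.32 in DM+Sham. It fell by 0.93 (SE 0.16, adjusted p = 0.012), but its second probe gave 0.47.

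Mcm6, another helicase subunit, read -3.75, -3.79 and -3.74 in Control+Sham, -4.40, -4.48 and -4.42 in DM+Sham, -4.30, -4.35 and -4.32 in Control+RYGB, and -3.26 and -3.57 in DM+RYGB. It was highest in DM+RYGB on this scale, and in Control+Sham with median and quantile scaling. It fell by 0.66 with diabetes in sham rats (SE 0.12, adjusted p = 0.012). Cdc45, which joins the helicase to the fork, read -2.58, -2.64 and -2.58 against -2.90, -3.03 and -3.02 and was not called (adjusted p = 0.059). Mcm4 at -0.28 was not called either, and its second probe gave 0.51 and was not called. The remaining 11 genes of this class, among them Mcm2 (-0.25), Pcna, the polymerase clamp (-0.47), E2f1 (-0.44), Mcm7 (0.13) and Tyms, thymidylate synthase (0.33), were not called.

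In the wider pathway, of 45 measured of 60 other G2 and mitotic genes, 25 fell and 2 rose, with a median of -0.82, and the 4 with the smallest p were Kif15 (-2.52), Spc25 (-1.69), Cep55 (-1.33) and Pbk (-2.95). Of 52 measured of 59 other G1 and replication genes, 12 fell and 1 rose, with a median of -0.13, among them Myc (-2.02), Gins1 (-1.38) and Gmnn (-1.19). Of 18 measured of 20 inhibitors and arrest genes, 3 fell, among them Gadd45b (-2.10) and Btg2 (-1.45), and 2 rose, Cdkn1c (1.11) and Cdkn1b (0.88), which encode the kinase inhibitors p57 and p27.

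Markers of other cell types moved with this comparison. Of 8 urothelium markers 6 fell, with a median difference of -2.76 over the 8, and Krt15 (-8.48) and Upk2 (-7.01) fell most. Their summed level was 1.71 to 1.80 in Control+Sham and 0.63 to 0.72 in DM+Sham. In DM+Sham most of that sum was Tp63, which gave 0.31 and was not called, so the sum understates the falls. The summed level of 12 leukocyte markers, of which 2 fell, was 1.48 to 1.54 in Control+Sham, 1.09 to 1.18 in DM+Sham, 1.46 to 1.61 in Control+RYGB and 1.14 to 1.30 in DM+RYGB. Their part in the result was not tested. The summed level of 11 proximal tubule markers was 7.23 to 7.71 in Control+Sham and 7.49 to 7.75 in DM+Sham.

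The 17 calls depend on how background and scan day are handled. With normexp background correction 0 of 33 members were called (6 at an unadjusted p under 0.05), and with scan day as a block, which left 2 residual degrees of freedom, 0 were called (18 at an unadjusted p under 0.05). In both fits 25 of 33 differences were below 0, as in the fit reported here. With normexp Cdk1 gave -1.29 and Ccna2 -1.23, while Kif2c gave -0.77 and Aurkb -0.52, and the 2 DM+RYGB arrays, which enter the shared estimate of spread, stood 1.42 apart against 0.45 without it. On the 2 scan days shared by both groups, where each contributed 1 array, the mitotic median was -1.19 and -1.02. Without DM+Sham 1 the count of calls was 9.

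**Figure D2:**
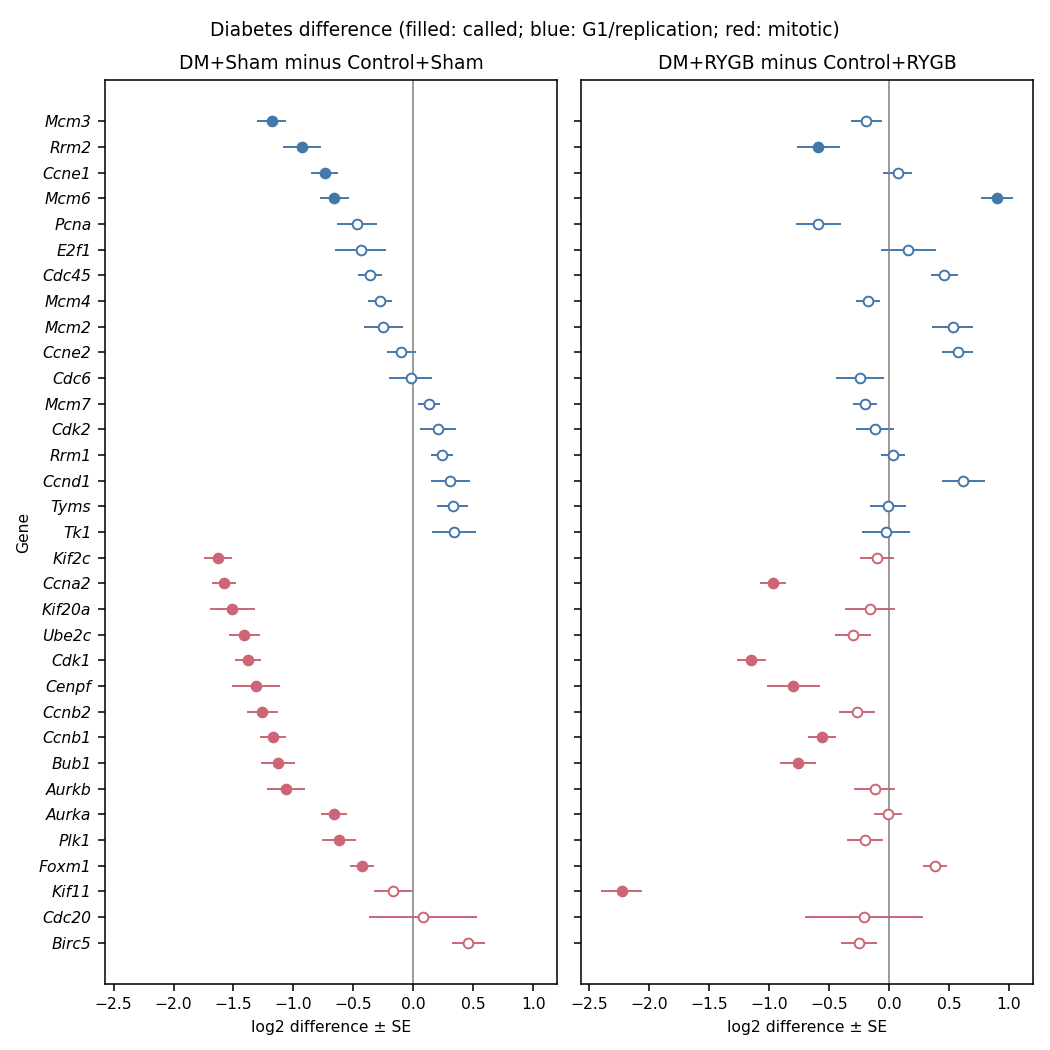
Log2 difference between diabetic and control rats after sham surgery (left) and after RYGB (right) for each listed gene; points are estimates, bars are SE, filled points were called, blue marks G1 and replication genes and red mitotic genes. On the left 13 of 16 red points are filled and lie below 0, on the right 6, with Kif11 at -2.23.

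With RYGB in diabetic rats, DM+RYGB against DM+Sham, 6 listed genes fell and 0 rose, where 10.8% of all genes fell and 13% rose (23.9% either way). Without overlap of arrays, 9 listed genes were lower and 19 higher, against 17.7% and 59.5% of all genes. The 6 were Cdk2, Cdc6 and Mcm7 of G1 and replication and Cdk1, Birc5 and Kif11 of the mitotic genes. This comparison shares the DM+Sham arrays with the one above.

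Kif11 read 1.67, 1.65 and 1.71 in Control+Sham, 1.45, 1.55 and 1.56 in DM+Sham, 1.99, 2.03 and 2.07 in Control+RYGB, and 0.05 and -0.46 in DM+RYGB. The DM+RYGB arrays were far below all others. It fell by 1.71 (SE 0.17, 3.26-fold, adjusted p = 0.00088). Mcm7 read 0.77, 0.75 and 0.75 in Control+Sham, 0.86, 0.91 and 0.91 in DM+Sham, 0.52, 0.63 and 0.58 in Control+RYGB, and 0.34 and 0.38 in DM+RYGB, and fell by 0.53 (SE 0.10, adjusted p = 0.0057). Both RYGB groups were below both sham groups. Cdc6, which loads the helicase (-0.64), Cdk2 (-0.53), Birc5 (-0.49) and Cdk1 (-0.34) were the other genes that fell.

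Several mitotic genes that were low in DM+Sham read higher in DM+RYGB on the 75th percentile scale and were not called, since the scaling decided the size. Kif2c differed by 1.22 with 75th percentile scaling, 0.90 with median scaling and -0.04 with quantile scaling. Ccnb2 differed by 1.04, 0.72 and 0.10. In G1 and replication, Mcm6 differed by 1.01, 0.69 and 0.30, and Ccne2, which read -4.98, -5.09 and -5.17 in DM+Sham and -3.97 and -4.23 in DM+RYGB, by 0.96, 0.64 and 0.12. The second Mcm3 probe rose by 1.17 where the first gave 0.25 and was not called.

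The mitotic median was 0.33, 0.01 and -0.37 under the 3 scalings, and the median of all genes was 0.57, 0.25 and -0.06, so the mitotic median was below that of all genes under each. The change of scaling moved dim members more: for the 14 members with a mean below -3 the median shift from 75th percentile to quantile was -0.81, and for the other 19 it was -0.35. DM+Sham was the group with the lowest mean for 11, 7 and 3 of 16 mitotic genes under the 3 scalings, and DM+RYGB for 3, 7 and 11.

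**Figure D3:**
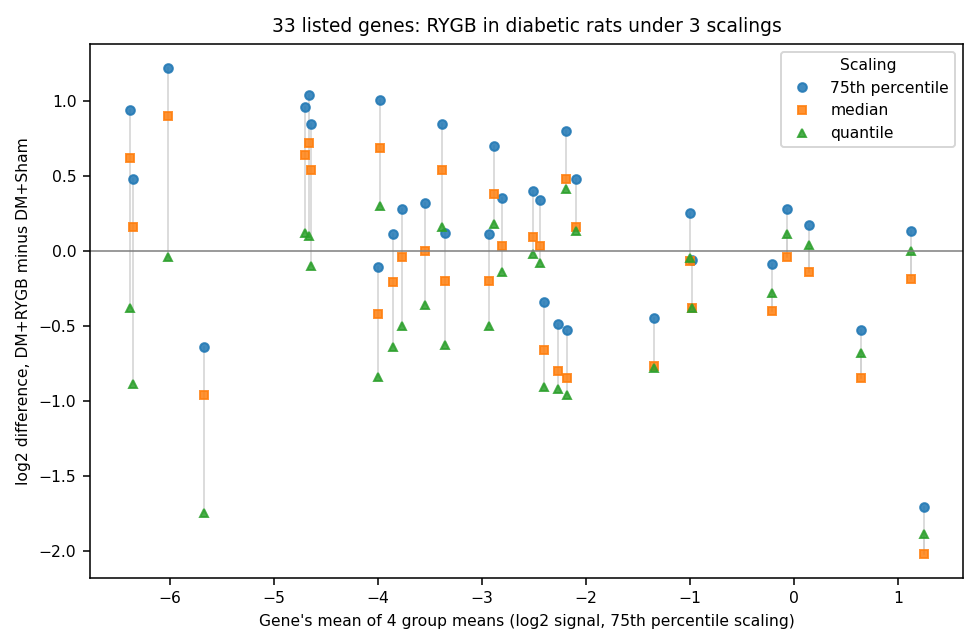
Log2 difference DM+RYGB minus DM+Sham for 33 listed genes (vertical) against the mean of the 4 group means of the gene (horizontal, log2 signal), with 75th percentile (circles), median (squares) and quantile scaling (triangles) joined for each gene. Dim genes at the left move farthest between scalings, and Kif11 at the far right is below -1.5 under all 3.

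Of the other G2 and mitotic genes 3 fell and 6 rose, with Lmnb1 (2.18), Nuf2 (1.63) and Hmgb2 (1.54) the called ones of smallest p. Of the other G1 and replication genes 8 fell and 2 rose, Cdc7, the kinase that fires origins (3.34), and Prim2 (0.78). Of the inhibitors 2 fell, Ccng2 (-0.68) and Sesn2 (-0.86), and 3 rose, among them Gadd45g (1.52). In the same comparison 7 of 11 proximal tubule markers fell, 3 of 5 podocyte and 3 of 8 urothelium markers rose, and 8 heart muscle markers had a median of 4.73 without passing the test. Their part in the result was not tested. With normexp background correction 2 members were called and Cdk1, Cdk2, Cdc6 and Birc5 turned positive. With scan day as a block 1 member was called, and without both DM+Sham 2 and 3 there were 2.

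With RYGB in control rats, Control+RYGB against Control+Sham, 7 listed genes fell and 1 rose, where 5.4% of all genes fell and 7.73% rose (13.1% either way). Without overlap of arrays, 18 listed genes were lower and 3 higher, against 17.3% and 47.9% of all genes. Ccne1 (-0.70), Mcm3 (-0.75), Mcm6 (-0.56) and Cdc45 (-0.47) fell in G1 and replication, and Cdk1 (-0.57), Ccna2 (-0.50) and Foxm1 (-0.47) among the mitotic genes. Tyms rose. The Control+Sham arrays are those of the first comparison.

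Tyms read -2.59, -2.58 and -2.56 in Control+Sham, -2.17, -2.33 and -2.33 in DM+Sham, -1.71, -1.81 and -1.83 in Control+RYGB, and -1.59 and -1.96 in DM+RYGB. Control+Sham was lowest without overlap, and the RYGB groups overlapped each other. The rise was 0.81 (SE 0.13, 1.76-fold, adjusted p = 0.01). Foxm1 read -2.21, -2.13 and -2.23 in Control+Sham and -2.67, -2.66 and -2.64 in Control+RYGB, but its second probe gave 0.63, so the probes disagree in direction. The second Rrm2 probe rose by 1.15 where the first, at -0.41, was not called.

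The fall of 0.57 in Cdk1 (SE 0.11, adjusted p = 0.015) and of 0.50 in Ccna2 (SE 0.10, adjusted p = 0.018) rested on Control+RYGB arrays that each lay below each Control+Sham array. Under 75th percentile, median and quantile scaling the medians were -0.18, -0.31 and -0.60 over the mitotic genes. They were -0.20, -0.32 and -0.33 over those of G1 and replication, and 0.29, 0.16 and -0.04 over all genes. Of the other G1 and replication genes 9 fell, including Chaf1b (-1.11), Gins1 (-1.11) and Prim1 (-0.79), and 2 rose, including Prim2 (1.53). Of the other G2 and mitotic genes 6 fell, including Kif15 (-0.89) and Incenp (-1.42), and 3 rose, including Hmmr (1.48) and Cks2 (1.26). Of the inhibitors 1 fell, Gadd45b (-0.77), and 1 rose, Tob1 (3.02). Here 6 of 8 urothelium markers fell, with a median difference of -3.04 over the 8 and a summed level of 0.77 to 0.93 in Control+RYGB. The part of this in the result was not tested. Without Control+RYGB 1, limma called 0 listed genes (8 at an unadjusted p under 0.05), and with normexp 0 as well (2 at an unadjusted p under 0.05). No scan day held both groups.

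With diabetes in rats that had RYGB, DM+RYGB against Control+RYGB, 7 listed genes fell and 1 rose, where 9.68% of all genes fell and 9.29% rose (19% either way). Without overlap of arrays, 14 listed genes were lower and 6 higher, against 19.6% and 44.3% of all genes. Kif11 (-2.23), Cdk1 (-1.15), Ccna2 (-0.97), Bub1 (-0.76), Cenpf (-0.80) and Ccnb1 (-0.56) fell among the mitotic genes. In G1 and replication Rrm2 fell (-0.59) and Mcm6 rose by 0.90 (SE 0.13, adjusted p = 0.003). Kif2c (-0.10), Aurkb (-0.12) and Kif20a (-0.16), which fell with diabetes in sham rats, were not called here. Their size depended on the scaling: they gave -0.32, -0.35 and -0.38 with median scaling, and -0.65, -0.69 and -0.57 with quantile scaling.

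Kif11 fell by 2.23 (SE 0.17, 4.68-fold, adjusted p = 0.00043), and Cdk1 by 1.15 (SE 0.12, 2.22-fold, adjusted p = 0.0011). Under the 3 scalings, in the same order, the mitotic median was -0.26, -0.49 and -0.74. That of G1 and replication was -0.01, -0.24 and -0.23, and that of all genes 0.27, 0.05 and 0.01. Of the other G2 and mitotic genes 13 fell, including Cks2 (-2.41), Spc25 (-1.69) and Aspm (-1.43), and 2 rose, including Lmnb1 (2.25). Of the other G1 and replication genes 12 fell, including Myc (-1.71), and 3 rose, including Rfc1 (0.65) and Cdc7 (1.22). Of the inhibitors 5 fell, including Sesn2 (-1.40), Gadd45b (-1.05) and Ccng2 (-0.90), and 3 rose, including Cdkn1c (1.60). Here 9 of 11 proximal tubule markers fell, and 3 of 5 podocyte and 3 of 8 urothelium markers rose. The 8 heart muscle markers, high on DM+RYGB 2, had a median of 4.88 without passing the test. The part of these markers in the result was not tested. With normexp background correction 1 member was called, and Ccna2, Ccnb1, Bub1 and Cenpf turned positive. With normexp these genes read -1.61, -1.60, -1.55 and -1.74 on DM+RYGB 1, and -3.37, -3.45, -2.75 and -4.46 on DM+RYGB 2. On DM+RYGB 2 Ccna2, Ccnb1 and Bub1 were still below every Control+RYGB array, and Cenpf was not. The change of sign thus rested on DM+RYGB 1 for Ccna2, Ccnb1 and Bub1. The second Cenpf probe gave 0.08 in this comparison. The second Mcm3 probe rose by 0.89 where the first, at -0.19, was not called. Without Control+RYGB 1 there were 3 calls.

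**Figure D4:**
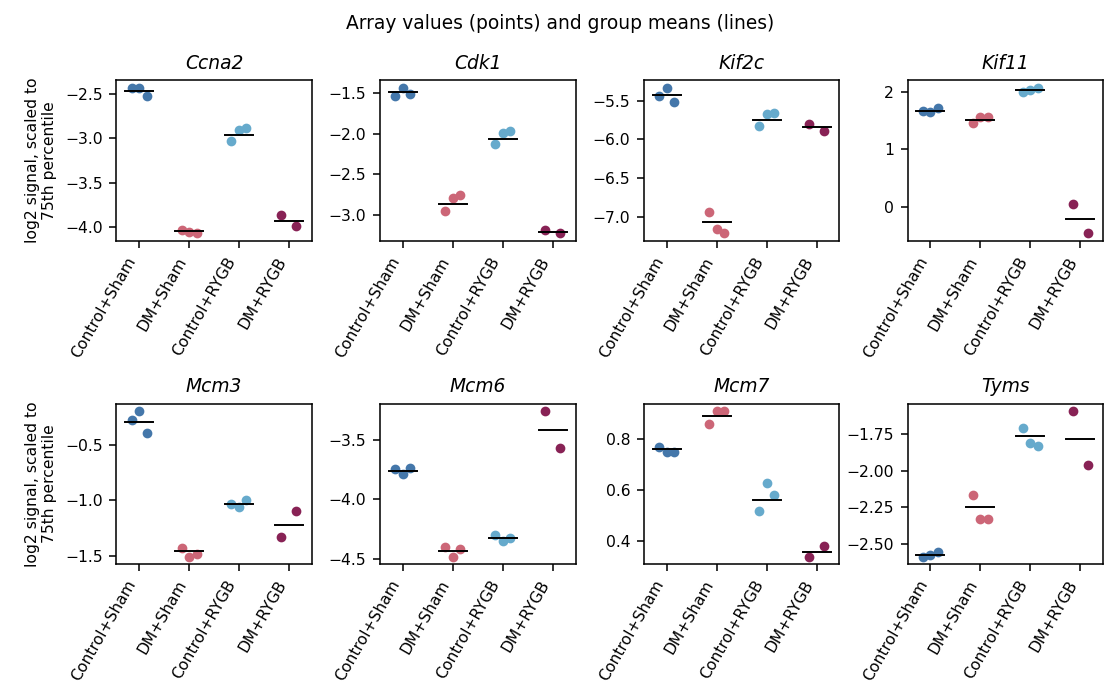
Log2 signal scaled to the 75th percentile (vertical, a separate scale for each gene) of 8 listed genes by group; points are arrays and lines are group means. Ccna2 and Cdk1 are low in both diabetic groups, Kif2c is lowest in DM+Sham on this scale but not with quantile scaling, and Kif11 is low in DM+RYGB.

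The interaction asks whether the RYGB difference is unlike in diabetic and control rats. It was called for 5 of 33 listed genes, 4 higher and 1 lower, where 7.58% of all genes were higher and 8.04% lower (15.6% either way). Mcm6 gave 1.57 (SE 0.17, adjusted p = 0.0023), Kif2c 1.54 (SE 0.18, adjusted p = 0.0029), Mcm3 0.99 (SE 0.17, adjusted p = 0.0095), Foxm1 0.81 (SE 0.14, adjusted p = 0.0098) and Kif11 -2.05 (SE 0.23, adjusted p = 0.0025). Mcm6, Mcm3 and Foxm1 fell with RYGB in control rats. In diabetic rats their differences were 1.01, 0.25 and 0.34, and none was called. These became 0.69, -0.07 and 0.03 with median scaling, and 0.30, -0.05 and -0.08 with quantile scaling. In the same order of scalings, the median RYGB difference of all genes in diabetic rats was 0.57, 0.25 and -0.06. For Kif11 the difference was 0.35 in control rats and -1.71 in diabetic rats. The second probes of Kif2c and Mcm3 were also called higher in the interaction, each at 1.86. The second Foxm1 probe gave 0.16 and was not called. The second Rrm2 probe was called lower, at -1.22, where the first gave 0.35 and was not called.

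Of the other G1 and replication genes 7 were higher and 4 lower in the interaction, led by Cdc7 (2.56), Gins2 (1.71), Gins1 (1.56) and Rfc3 (1.15). Of the other G2 and mitotic genes 7 were higher and 2 lower, led by Nuf2 (1.89), Lmnb1 (2.10), Cks2 (-2.24) and Kif15 (1.29). Of the inhibitors 3 were higher and 2 lower, among them Gadd45g (1.99) and Ccng2 (-1.15). In the same term 7 of 8 urothelium markers were higher, with a median of 3.99, and 7 of 11 proximal tubule markers lower, with a median of -2.41. Of 5 podocyte markers 3 were higher, and 8 heart muscle markers had a median of 4.54 without passing the test. The part of these markers in the result was not tested. With scan day as a block limma called 0 listed genes (13 at an unadjusted p under 0.05).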

How the data were processed

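RNA of renal cortex was measured on 11 one-colour Agilent Rat 4x44K arrays, 1 per sample. Per the file headers, Agilent Feature Extraction 11.0.1.1 turned the scans into background-subtracted spot intensity, unscaled across arrays. A further table, of log2 values that the authors deposited (median 7.07 in every column, correlation 0.9887 to 0.9969 with the scanner values), was an alternative, and how it was made is not stated.

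From these, 1377 control spots of 44254 were left out, spots of a probe were averaged, and log2 signal minus the 75th percentile of the array was taken. Of 30367 probes 18005 were named through RefSeq accessions (GRCr8 names), and 25805 genes (14358 named) entered 1 model of the 4 groups in R 4.3.3 (limma 3.58.1, lmFit then eBayes), with Benjamini-Hochberg adjustment over all of them and 5 residual degrees of freedom. Near-identical arrays were averaged. The script was tested on simulated data. The number of arrays limits the precision.

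Array values are given for the 6 genes per class with the smallest p for diabetes in sham rats and 3 per class in each other comparison, and up to 4 genes of each further list. Not every gene of that rule is printed with all its arrays. The members, lists and the demand for 3 scalings were chosen with earlier results of these data known. Alternatives were single scalings, normexp, the deposited table, probe filters and summaries, separate arrays, replicate and scan-day blocks, and leaving out each sample. Normexp with an offset of 0, and normexp without either DM+RYGB array, were added after the data were seen.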

Additional observations from a re-analysis of the deposited data

Results flagged for a closer look

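For 5 listed genes the RYGB difference in diabetic rats was unlike that in control rats by the interaction term of the limma fit, where 15.6% of all genes were called, so the share of listed genes is near that background. The term was 1.57 for Mcm6, 1.54 for Kif2c, 0.99 for Mcm3, 0.81 for Foxm1 and -2.05 for Kif11. The second Foxm1 probe disagreed with the first on the RYGB difference in control rats. In the interaction it gave 0.16 and was not called. Leaving out any 1 sample kept the calls of Kif11 and Mcm6.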

How the results depend on the processing

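Main counts of called members were 17 for diabetes in sham rats, 6 for RYGB in diabetic rats, 8 for RYGB in control rats, 8 for diabetes in RYGB rats and 5 for the interaction, and the values below follow that order. Normexp gave 0, 2, 0, 1 and 1, and with an offset of 0 again 0, 2, 0, 1 and 1; RYGB in control rats had 2 at an unadjusted p under 0.05. The 2 arrays of DM+RYGB differed by a spread of 1.42 with normexp and 0.45 without, and other pairs within a group by at most 0.508 with it. After those counts of 0 had been seen, normexp was rerun without DM+RYGB 1, giving 10, 2, 5, 3 and 4, and without DM+RYGB 2, giving 10, 2, 5, 3 and 6, so normexp lowered the first count in all 4 normexp fits tried. Scan day as a block (10 samples, 2 residual degrees of freedom) gave 0, 1, 0, 4 and 0, and RYGB in control rats had 2 at an unadjusted p under 0.05. For RYGB in diabetic rats single scalings gave 18 (75th percentile), 16 (median) and 12 (quantile), and 12 came from the deposited table. For RYGB in control rats quantile scaling and the deposited table each gave 14, and 11 separate arrays 16. For diabetes in RYGB rats median scaling gave 13, and quantile scaling and the deposited table each 16. For the interaction the 75th percentile alone gave 15, the median 12 and 11 separate arrays 12. The replicate numbers do not pair the samples (correlations of -0.377 to 0.452 over 15 pairs, 5 above 0.1), and with a replicate block the counts were 20, 7, 13, 9 and 9.

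Leaving out each sample gave 9 to 20, 2 to 7, 0 to 12, 3 to 9 and 2 to 9 calls. The first count was 11 without Control+Sham 1, 11 without Control+Sham 2, 9 without DM+Sham 1 and 10 without DM+Sham 2 and 3, and 9 of the 17 genes kept their call each time. RYGB in diabetic rats gave 2 without DM+Sham 2 and 3, and 3 without Control+Sham 1, DM+Sham 1, Control+RYGB 1 or Control+RYGB 2 and 3. RYGB in control rats gave 2 without Control+Sham 1 or 2, and 1 without Control+RYGB 2 and 3. Diabetes in RYGB rats gave 5 without Control+Sham 1, and 3 without Control+RYGB 1 or without 2 and 3. The interaction gave 2 without any 1 of 6 samples, 9 without DM+RYGB 1 and 8 without DM+RYGB 2.

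Some values of called members changed sign, and some values passed in the direction opposite to the reported value. Only those are listed. Sign changes of members that were not called and did not pass in the opposite direction are left out. For RYGB in diabetic rats 10 of 33 members were below 0 in the main fit, 19 with median scaling and 23 with quantile scaling. For diabetes in RYGB rats 24 were below 0 in the main fit and 8 with normexp. The values in RYGB in diabetic rats were Ccne1 -0.64, Ccna2 -0.63, Ccnb1 -0.5 and Cenpf -0.89 with quantile scaling; Ccne1 -0.61, Ccna2 -0.59, Ccnb1 -0.48 and Cenpf -0.72 with the deposited table; Cdk2 0.04, Cdc6 1.45, Cdk1 0.48 and Birc5 0.1 with normexp; Cdk2 0.49, Cdc6 2.76, Cdk1 1.14 and Birc5 0.63 with normexp without DM+RYGB 2; Cdc6 0.13 with normexp without DM+RYGB 1; Cdc6 1.43, Cdk1 0.44 and Birc5 0.04 with normexp with an offset of 0. The values in RYGB in control rats were Foxm1 0.08 with the mean of all probes. The values in diabetes in RYGB rats were Rrm1 -0.43 with quantile scaling; Rrm1 -0.41 with the deposited table; Rrm2 0.05, Ccna2 1.22, Ccnb1 1.53, Cdk1 0.41, Bub1 0.79 and Cenpf 2.99 with normexp without DM+RYGB 2; Ccna2 0.34, Ccnb1 0.61, Bub1 0.19 and Cenpf 1.63 with normexp; Ccna2 0.19, Ccnb1 0.49, Bub1 0.11 and Cenpf 1.56 with normexp with an offset of 0; Cenpf 0.27 with normexp without DM+RYGB 1. The causes were not tested.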
